A study of Mus musculus with 11 samples.

Results

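The 39 genes described here encode the machinery that copies DNA and part of the machinery that repairs it. They were chosen by name, and each was read from the probe set that carries its symbol alone, the brightest of them over all arrays where a gene had more than 1. All 39 of 39 were present among the 19938 named genes of the arrays, and 37 of them had a single probe set. Expression was measured with 11 Affymetrix arrays of mouse stomach. NGE is normal gastric epithelium from mice without the Cre transgene (4 arrays). pChePS_GC (4 arrays) is gastric cancer tissue of mice with the Pdx-1-Cre transgene whose genotype was Cdh1F/+ with Trp53F/F and Smad4F/F. pCP_GC (3 arrays) is gastric cancer tissue of mice with the same transgene that were Cdh1F/F and Trp53F/F. The labels call both cancers diffuse type and give no treatment to any group. Both tumour groups therefore carry floxed Trp53 and floxed Cdh1, the E-cadherin gene, with 1 floxed Cdh1 allele in pChePS_GC and both in pCP_GC, and pChePS_GC alone carries floxed Smad4, which encodes the shared mediator of TGF-beta and BMP signals. F marks a floxed allele, which Cre recombinase removes, and Cre is driven here by the promoter of Pdx1, a gene active in the distal stomach, duodenum and pancreas, so recombination need not reach every stomach cell. The labels do not say whether the arrays of a group come from separate animals, so the p-values rest on a spread between samples that may in part be technical.

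Before a cell divides it loads the Mcm2 to Mcm7 helicase onto origins of replication, a step called licensing, and at the start of S phase Cdc45 and the GINS complex join the helicase and switch it on. DNA polymerases then copy both strands, a ring-shaped clamp keeps them on the template, and the short pieces of the lagging strand are trimmed and joined. Most of these genes are transcribed in bursts with the cell cycle under E2F transcription factors, which the retinoblastoma protein family holds back in resting cells. In the normal stomach, division is concentrated in progenitor cells of the gland, and most mature cells do not divide.

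Signals are log2 values as deposited, so a difference of 1 is a 2-fold change, and array medians lay between 7.63 and 7.81. A difference passed the test at an adjusted p under 0.05, from a linear model of group means over all 11 arrays (limma, two-sided, Benjamini-Hochberg adjustment over 19938 genes). Relative to NGE, Cdh1 fell by 3.39 in pChePS_GC (adjusted p = 0.000315) and fell by 1.78 in pCP_GC (adjusted p = 0.0137). Smad4 fell by 0.60 in pChePS_GC (adjusted p = 0.0152) and differed from NGE by 0.35 in pCP_GC (adjusted p = 0.114, not passed). Levels of the sex-linked genes Xist and Eif2s3y were opposite in NGE and both tumour groups (Xist -6.39 and -6.57, Eif2s3y 5.19 and 4.22), so sex and tumour cannot be told apart. As a rough floor for unexpressed genes, 1190 genes of smell and pheromone receptors were used, and all 8 markers of epithelium were above the 95th percentile of these receptor genes in all 3 groups. Replicate 2 of pChePS_GC stood apart in the genes described here, and their counts are therefore given with and without it. In bulk tissue, a larger share of dividing cells and more RNA per dividing cell cannot be told apart.

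Both tumour groups had higher signals for most of the replication and repair genes. In pChePS_GC, 28 of 39 rose and 1, Gins3, fell, against a background of 18.7% of all genes that rose and 23.4% that fell. In pCP_GC, 37 of 39 rose and 0 fell, against 20.0% and 31.8% of all genes. The median gene of the list was 0.60 above NGE in pChePS_GC (range -0.54 to 1.27) and 0.97 above it in pCP_GC (range -0.16 to 1.84), while the medians over all genes were -0.10 and -0.12. A rise of at least 2-fold that passed the test was seen for 8 genes in pChePS_GC, against 6.98% of all genes, and for 19 in pCP_GC, against 8.13%. All 4 pChePS_GC arrays lay above all 4 NGE arrays for 23 genes (17.7% of all genes), and all 3 pCP_GC arrays did so for 38, every gene but Gins3 (24.0% of all genes).

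The 10 genes that did not pass in pChePS_GC were Orc1, Cdc6, Mcm10, Cdc45, Gins2, Pola1, Pola2, Rpa2, Tk1 and Dnmt1, and the 2 that did not pass in pCP_GC were Gins3 and Pola2. Both comparisons use the same NGE arrays. Centring each array on its own median lowered every difference by 0.175 in pChePS_GC and 0.214 in pCP_GC. After centring, 22 genes of the list rose and 1 fell in pChePS_GC and 30 rose in pCP_GC, with medians of 0.43 and 0.76, and the differences of Orc1, Cdc6 and Cdc45 in pChePS_GC, which had not passed, turned negative. Over all genes after centring, 2695 rose and 9101 fell (3728 and 4658 as deposited) in pChePS_GC and 2686 rose and 9716 fell (3994 and 6343 as deposited) in pCP_GC.

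**Figure D1:**
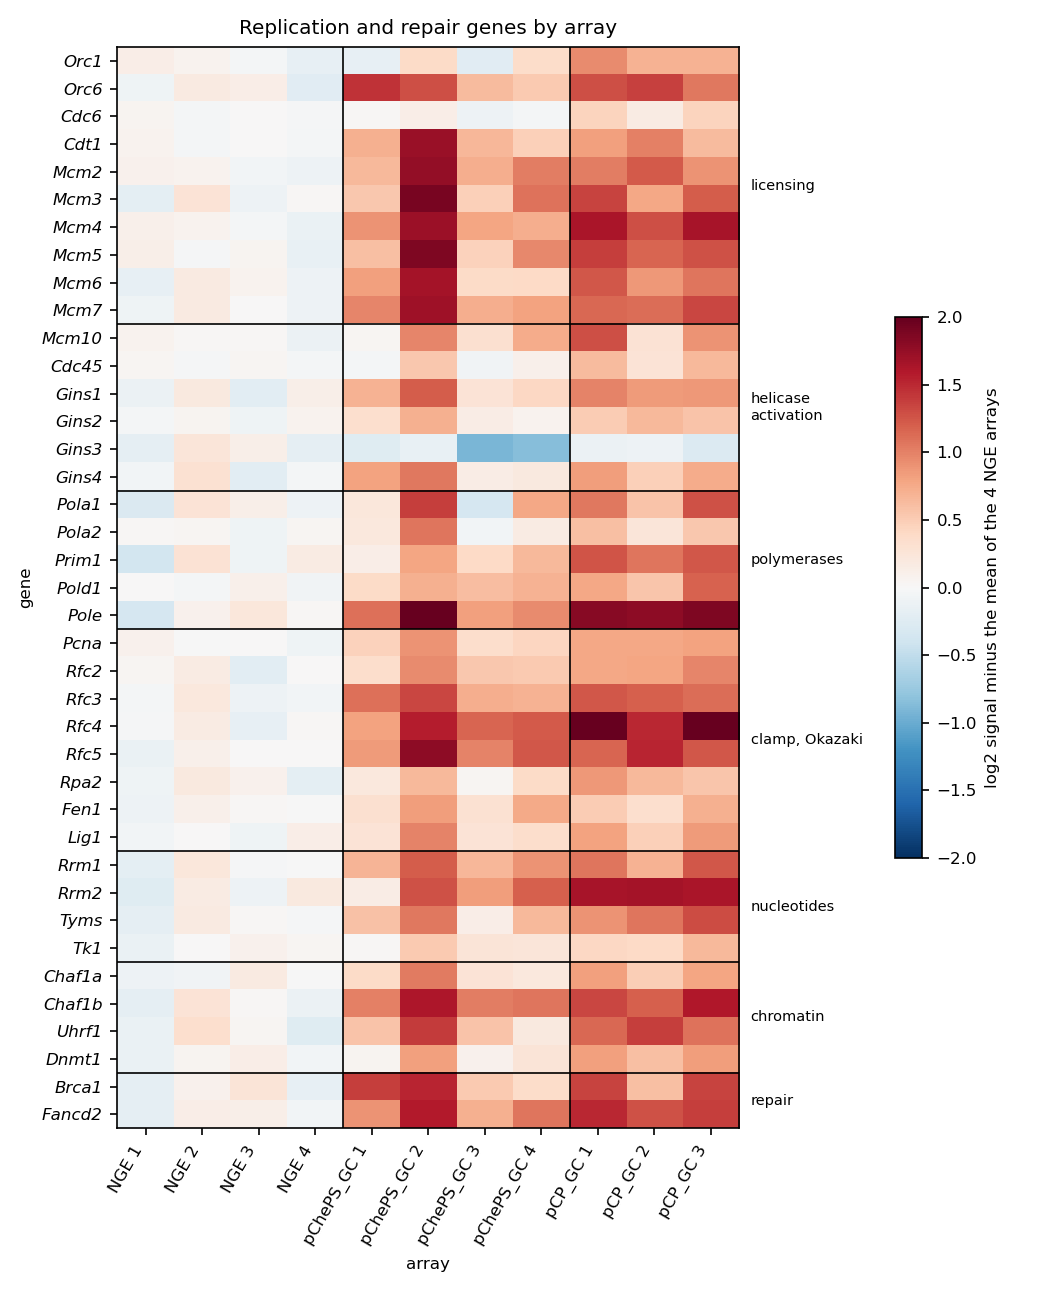
Log2 signal of each replication and repair gene minus its mean over the 4 NGE arrays, 1 row per gene ordered by role and 1 column per array (colour bar in log2 units, drawn to 2.0 at most). The pCP_GC columns are red for all genes but Gins3, and the column of pChePS_GC replicate 2 is the reddest of its group in 38 of 39 rows.

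Replicate 2 of pChePS_GC was the highest of its group for 38 of 39 genes, all but Orc6, where 18.3% of all genes were highest in that array. It was also the highest of all 7 tumour arrays for 23 of the 39. The median difference of the list from the NGE mean was 1.21 in that array and 0.55, 0.40 and 0.53 in replicates 1, 3 and 4, against 1.03, 0.77 and 1.06 in pCP_GC replicates 1, 2 and 3. The median SD of these genes was 0.383 in pChePS_GC, 0.139 in NGE and 0.167 in pCP_GC, and over all genes 0.184, 0.136 and 0.155. Mitosis genes did not set this array apart to the same degree, with 12 of 19 highest there and a median of 1.58, while pChePS_GC replicate 4 reached 1.59. The median difference of 7 B and plasma cell markers from NGE was 2.32 in this array and 0.02, 0.73 and 0.58 in the others of the group. Of those 7 markers, 2 rose in pChePS_GC, their mean level ran from 7.45 to 7.68 in NGE and from 7.88 to 9.64 in pChePS_GC, and Ms4a1 was under the receptor percentile. In pCP_GC the median of these markers was 0.07, 1.5 and -0.11 in replicates 1, 2 and 3. Surface mucous cell markers also set pChePS_GC arrays apart, with a median difference from NGE of -4.93, -0.80, -1.70 and -2.10 in replicates 1 to 4. Fibroblast markers had medians of 2.802, 3.15, 3.685 and 3.38 in pChePS_GC replicates 1 to 4. In pCP_GC replicates 1 to 3 their medians were 2.506, 3.645 and 3.043. Smooth muscle markers had medians of 1.263, 4.473, 4.735 and 2.902 in pChePS_GC and 2.82, 4.393 and 3.037 in pCP_GC, in replicate order. The part of any of these lists in the result was not tested.

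Without that array, 22 of 39 genes rose and 1, Gins3, fell in pChePS_GC (16.0% and 16.1% of all genes), and the median difference from NGE was 0.46 in place of 0.60. The rises of Gins4, Prim1, Lig1, Chaf1a, Uhrf1 and Brca1 no longer passed without it. Counted array by array, 29, 38, 29 and 34 of the 39 genes were above all NGE arrays in pChePS_GC replicates 1 to 4, and 38 in each pCP_GC array, where 30.1% to 34.4% of all genes were. Over 21 alternative settings, the calls in pChePS_GC lost most often were those of Chaf1a (13 settings), Gins4 (12), Lig1 (9), Prim1 (8) and Uhrf1 (8), and in pCP_GC those of Pola1 (9), Gins4 (8), Cdc45 (6) and Mcm10 (6). In pCP_GC the calls of Cdc6, Cdc45, Mcm10, Gins4, Pola1, Fen1 and Tk1 were lost both with centring and with quantile normalization. Those of Cdt1, Gins2, Lig1 and Chaf1a were lost with quantile normalization but not with centring. This left 30 rises with centring and 26 with quantile normalization.

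**Figure D2:**
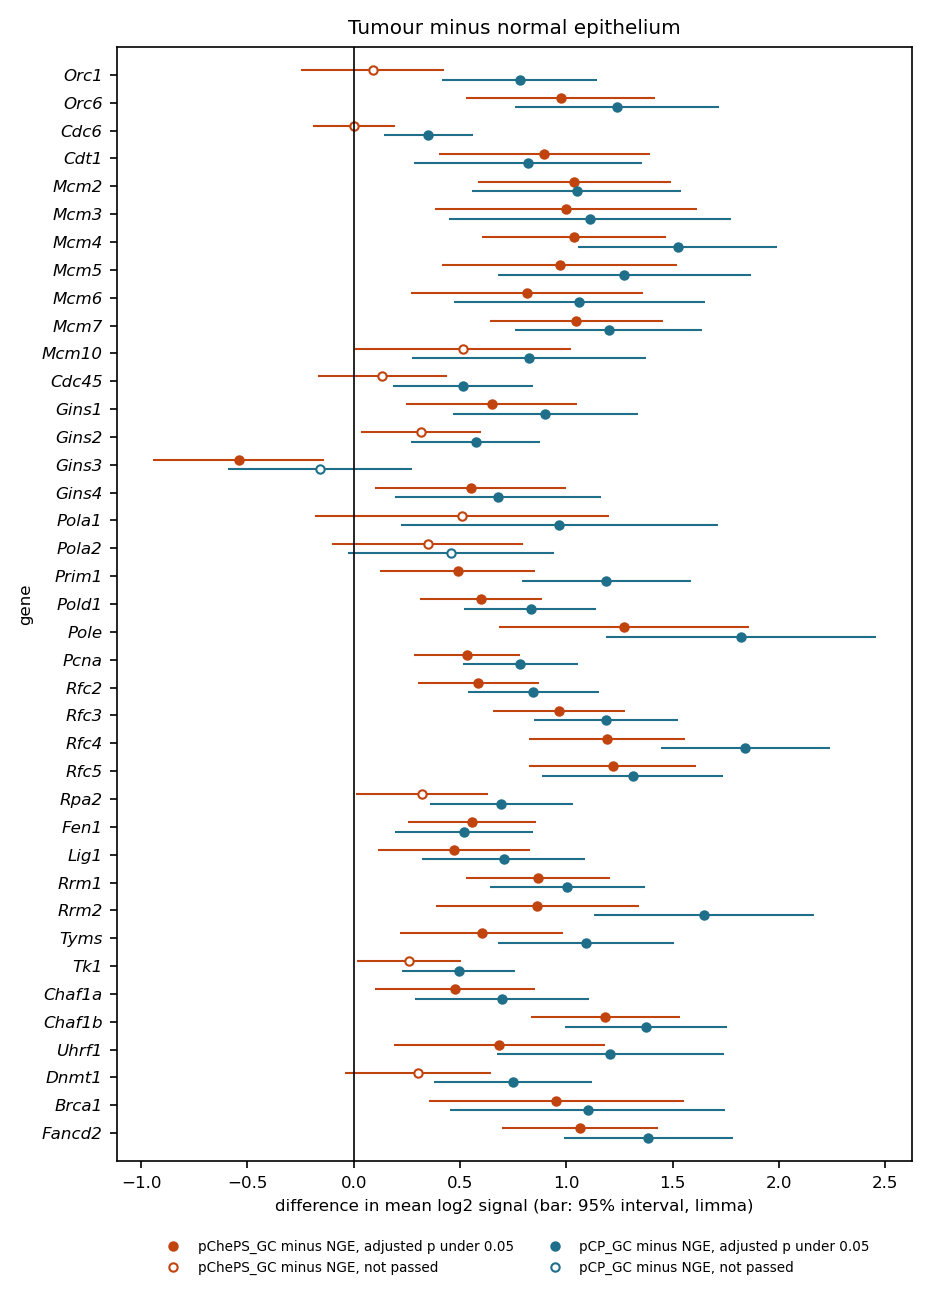
Difference in mean log2 signal from NGE (4 arrays) for each gene, with 95% intervals from limma, for pChePS_GC (4 arrays) and pCP_GC (3 arrays). Filled points passed the test: 29 in pChePS_GC and 37 in pCP_GC, and Gins3 alone lies left of 0 in both groups with the values as deposited.

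Because most of these genes are known targets of E2F factors, promoter sequences were read for the letters that E2F factors bind. RefSeq windows (GRCm38.p6) from 250 bases before to 50 after the transcription start were at hand for 32 of the 39 genes, in 39 windows, and the 7 genes without one were Mcm4, Gins1, Gins2, Gins4, Pole, Rfc2 and Fancd2. The windows of 6 genes are shown, all 300 bases long, 5′ to 3′ on the strand of the gene, with each E2F match in capitals. Mcm5 (chr8:75109259-75109558, plus strand) and Mcm6 (chr1:128359656-128359955, minus strand) are helicase subunits whose windows hold 3 and 5 matches, some of which overlap.
Mcm5: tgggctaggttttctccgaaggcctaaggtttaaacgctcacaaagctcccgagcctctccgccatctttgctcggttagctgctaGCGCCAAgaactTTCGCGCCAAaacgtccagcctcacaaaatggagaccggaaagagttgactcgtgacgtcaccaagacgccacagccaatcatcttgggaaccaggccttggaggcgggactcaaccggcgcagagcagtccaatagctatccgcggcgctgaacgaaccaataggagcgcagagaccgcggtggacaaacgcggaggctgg
Mcm6: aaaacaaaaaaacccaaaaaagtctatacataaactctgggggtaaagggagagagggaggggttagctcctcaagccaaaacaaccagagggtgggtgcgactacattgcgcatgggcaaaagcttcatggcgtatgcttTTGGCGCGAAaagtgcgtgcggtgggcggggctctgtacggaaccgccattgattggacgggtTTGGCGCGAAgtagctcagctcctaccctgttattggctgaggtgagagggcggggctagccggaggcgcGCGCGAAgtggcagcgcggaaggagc
Rfc4 (chr16:23127681-23127980, minus strand) and Chaf1b (chr16:93883651-93883950, plus strand) are shown as genes that rose more than 2-fold in both tumour groups, with 1 and 2 matches.
Rfc4: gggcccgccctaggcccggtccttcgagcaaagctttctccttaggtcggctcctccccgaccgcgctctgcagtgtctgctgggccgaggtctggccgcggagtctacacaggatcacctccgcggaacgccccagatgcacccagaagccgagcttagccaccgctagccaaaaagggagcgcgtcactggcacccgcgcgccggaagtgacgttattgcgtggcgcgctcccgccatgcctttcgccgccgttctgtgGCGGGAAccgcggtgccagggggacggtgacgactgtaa
Chaf1b: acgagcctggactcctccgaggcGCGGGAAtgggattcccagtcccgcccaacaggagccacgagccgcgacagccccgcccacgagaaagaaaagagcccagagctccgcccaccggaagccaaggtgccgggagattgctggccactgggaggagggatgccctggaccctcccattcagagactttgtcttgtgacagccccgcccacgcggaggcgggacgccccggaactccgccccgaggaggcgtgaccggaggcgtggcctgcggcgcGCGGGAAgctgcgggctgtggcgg
Cdc6 (chr11:98907901-98908200, plus strand) and Gins3 (chr8:95633309-95633608, plus strand) are shown because each has 1 match as well, while Cdc6 did not pass in pChePS_GC and Gins3 fell there.
Cdc6: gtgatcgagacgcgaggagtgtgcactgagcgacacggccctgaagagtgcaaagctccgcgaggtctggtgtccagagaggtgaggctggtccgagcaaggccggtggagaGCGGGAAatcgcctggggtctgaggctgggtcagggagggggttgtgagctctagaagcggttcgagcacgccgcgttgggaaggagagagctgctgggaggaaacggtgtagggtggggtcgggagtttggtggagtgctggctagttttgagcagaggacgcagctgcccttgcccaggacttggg
Gins3: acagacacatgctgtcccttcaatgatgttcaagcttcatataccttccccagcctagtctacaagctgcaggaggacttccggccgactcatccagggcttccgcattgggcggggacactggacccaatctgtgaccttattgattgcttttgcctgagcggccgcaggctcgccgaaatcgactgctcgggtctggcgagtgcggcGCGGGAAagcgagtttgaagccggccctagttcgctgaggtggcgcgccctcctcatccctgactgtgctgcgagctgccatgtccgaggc

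The letters TTCCCGC were searched for E2F on both strands, along with the related site TTGGCGC and with a further variant spelled TTCGCGC. They occurred in 25 of the 39 windows of these genes (64.1%), belonging to 22 of 32 genes, and in 8.07% of all 32851 windows of that length, or 11% of windows of genes on the arrays. With most of these genes known as E2F targets beforehand, a high share was likely from the choice of genes and is no separate evidence. The CCAAT box, the letters CCAAT on both strands, occurred in 61.5% of the windows of these genes and in 37.4% of all windows, and shared at least 1 base with an E2F match in 2 windows. The cell cycle homology region (CHR), searched on both strands as TTTGAA or in the other spelling TTCGAA, occurred in 17.9% against 19.2% of all windows. Of 44 E2F matches, 26 lay before the start site, 1 touched it and 17 lay after it, with overlapping matches counted separately. The windows of these genes were also richer in G and C, with a median of 57.7% against 52.7%.

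Promoters of mitosis genes, which act later in the cycle, had another make-up. Of 17 such windows, 3 held an E2F match (17.6%), 14 a CCAAT box (82.4%) and 13 a CHR (76.5%). Within the replication and repair genes, the medians lay close together with and without a match. In pChePS_GC the median difference from NGE was 0.64 for the 22 genes with an E2F match, 0.57 for the 10 without and 0.65 for the 7 without a window. In pCP_GC the medians were 0.99, 0.94 and 0.90. A match is a run of letters and says nothing of whether a factor was bound in these tissues.

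**Figure D3:**
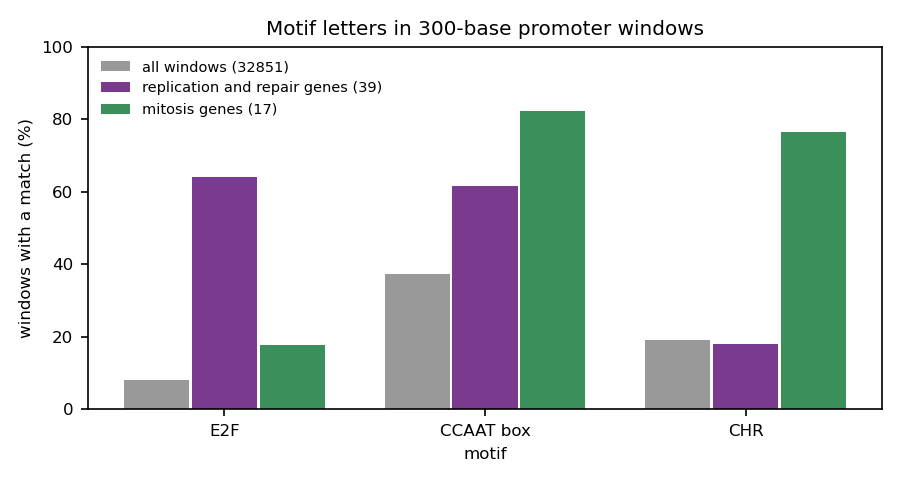
Percentage of 300-base promoter windows that hold at least 1 match to the letters of the E2F site, the CCAAT box and the CHR, for all 32851 windows, the 39 windows of replication and repair genes and the 17 windows of mitosis genes. The E2F bar is tallest for the replication and repair genes at 64.1%, and the CHR bar for the mitosis genes at 76.5%.

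The counts by role below stand beside 18.7% of all genes that rose and 23.4% that fell in pChePS_GC, and 20.0% and 31.8% in pCP_GC. Licensing genes rose almost throughout, with 8 of 10 in pChePS_GC (median 0.97) and 10 of 10 in pCP_GC (median 1.09). All 6 subunits of the Mcm2 to Mcm7 ring, the helicase that unwinds DNA, rose in both tumour groups. Mcm4 signals were 8.96, 8.92, 8.81 and 8.72 on the NGE arrays, 9.76, 10.57, 9.65 and 9.58 on those of pChePS_GC, and 10.49, 10.14 and 10.50 on those of pCP_GC. No tumour array overlapped NGE, and the 4 NGE arrays lay close together. Mcm4 rose by 1.04 (SE 0.20, adjusted p = 0.00218) in pChePS_GC and by 1.52 (SE 0.21, adjusted p = 0.000341) in pCP_GC. Mcm2 signals were 9.63, 9.60, 9.48 and 9.44 on the NGE arrays, 10.18, 11.29, 10.27 and 10.56 on those of pChePS_GC, and 10.57, 10.76 and 10.43 on those of pCP_GC. Again every tumour array was above every NGE array, and the highest of all was pChePS_GC replicate 2. Mcm2 rose by 1.04 (SE 0.21, adjusted p = 0.00292) in pChePS_GC and by 1.05 (SE 0.22, adjusted p = 0.00327) in pCP_GC, and Mcm7 by 1.05 (SE 0.19, adjusted p = 0.00144) and 1.20 (SE 0.20, adjusted p = 0.000946). The rises of Mcm3, Mcm5 and Mcm6 were 1.00, 0.97 and 0.82 in pChePS_GC and 1.11, 1.27 and 1.06 in pCP_GC, with adjusted p between 0.0115 and 0.0235 in the former and between 0.00327 and 0.0107 in the latter.

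The loading factors were less uniform. Cdt1, which brings the Mcm ring to origins, was 9.08, 8.96, 9.02 and 8.97 on the NGE arrays, 9.72, 10.72, 9.68 and 9.48 on those of pChePS_GC, and 9.82, 10.02 and 9.63 on those of pCP_GC. It rose by 0.90 (SE 0.23, adjusted p = 0.0101) in pChePS_GC and by 0.82 (SE 0.24, adjusted p = 0.0165) in pCP_GC, without overlap with NGE. Cdc6, its partner at the origin, was 8.15, 8.06, 8.11 and 8.07 on the NGE arrays, 8.12, 8.23, 7.998 and 8.06 on those of pChePS_GC, and 8.55, 8.26 and 8.54 on those of pCP_GC. Its 3 pCP_GC arrays were above all others, and its pChePS_GC arrays were spread around the NGE level. The Cdc6 difference was 0.002 (SE 0.09, adjusted p = 0.988) in pChePS_GC, not passed, and 0.35 (SE 0.10, adjusted p = 0.0109) in pCP_GC.

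Orc6, a subunit of the origin recognition complex that marks origins, was 8.07, 8.34, 8.29 and 7.94 on the NGE arrays, 9.60, 9.45, 8.80 and 8.68 on those of pChePS_GC, and 9.45, 9.53 and 9.22 on those of pCP_GC. It rose by 0.97 (SE 0.20, adjusted p = 0.00363) in pChePS_GC and by 1.24 (SE 0.22, adjusted p = 0.00124) in pCP_GC, and replicates 1 and 2 of pChePS_GC stood well above replicates 3 and 4. Orc1, the largest subunit of that complex, was 7.18, 7.12, 7.01 and 6.88 on the NGE arrays, 6.88, 7.43, 6.82 and 7.42 on those of pChePS_GC, and 7.99, 7.75 and 7.75 on those of pCP_GC. Replicates 1 and 3 of pChePS_GC were below the lowest NGE array, replicates 2 and 4 were above the highest, and all pCP_GC arrays were higher still. The Orc1 difference was 0.09 (SE 0.15, adjusted p = 0.652) in pChePS_GC, not passed, and 0.78 (SE 0.17, adjusted p = 0.0032) in pCP_GC. The mean of Orc1 in NGE, 7.05 ± 0.13 (SD, n = 4), lay under the 95th percentile of receptor genes there (7.24), as did that of Fancd2, so their differences from NGE start from a level near that floor.

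Of the 6 genes that act on the loaded helicase, 2 rose and 1 fell in pChePS_GC (median 0.42) and 5 rose in pCP_GC (median 0.63). The pChePS_GC counts are near the 18.7% of all genes that rose and 23.4% that fell, and are no result about this step. Gins1 and Gins4, 2 of the 4 subunits of the GINS complex, rose in both. Gins1 was 7.61, 7.92, 7.51 and 7.85 on the NGE arrays, 8.43, 8.93, 7.99 and 8.14 on those of pChePS_GC, and 8.71, 8.58 and 8.59 on those of pCP_GC, with no overlap between tumour and NGE arrays. Gins1 rose by 0.65 (SE 0.18, adjusted p = 0.017) in pChePS_GC and by 0.90 (SE 0.20, adjusted p = 0.00375) in pCP_GC. Gins4 rose by 0.55 (SE 0.20, adjusted p = 0.0496) in pChePS_GC and by 0.68 (SE 0.22, adjusted p = 0.0243) in pCP_GC, with the first close to the threshold and replicates 3 and 4 inside the NGE range. Gins2 differed by 0.32 (SE 0.13, adjusted p = 0.0652) in pChePS_GC, not passed, and rose by 0.57 (SE 0.14, adjusted p = 0.00585) in pCP_GC.

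Gins3, the remaining subunit, went the other way. Its signals were 8.23, 8.64, 8.52 and 8.23 on the NGE arrays, 8.16, 8.25, 7.48 and 7.55 on those of pChePS_GC, and 8.29, 8.31 and 8.13 on those of pCP_GC. Replicates 3 and 4 of pChePS_GC were the lowest of all 11 arrays, while replicate 2 lay within the NGE range. Gins3 fell by 0.54 in pChePS_GC (SE 0.18, adjusted p = 0.0351), and the adjusted p ran from 0.00803 to 0.0872 over 20 alternative settings, 7 of which lost the call. In pCP_GC the difference was -0.16 (SE 0.20, adjusted p = 0.514), not passed, and between the tumour groups it was -0.38 (95% interval -0.82 to 0.05, adjusted p = 0.351).

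Cdc45 and Mcm10, which join the ring as it is switched on, passed in pCP_GC and not in pChePS_GC. Cdc45 was 8.40, 8.33, 8.39 and 8.32 on the NGE arrays, 8.33, 8.91, 8.29 and 8.45 on those of pChePS_GC, and 8.98, 8.63 and 9.01 on those of pCP_GC. Replicate 2 of pChePS_GC was above NGE and its other 3 arrays lay close to the NGE arrays. The Cdc45 difference was 0.14 (SE 0.14, adjusted p = 0.438) in pChePS_GC, not passed, and 0.52 (SE 0.15, adjusted p = 0.0146) in pCP_GC. Mcm10 was 8.49, 8.45, 8.45 and 8.31 on the NGE arrays, 8.46, 9.40, 8.74 and 9.16 on those of pChePS_GC, and 9.72, 8.71 and 9.32 on those of pCP_GC, and differed by 0.52 (SE 0.23, adjusted p = 0.0922) in pChePS_GC, not passed, and by 0.82 (SE 0.25, adjusted p = 0.018) in pCP_GC. For neither gene did the difference between tumour groups pass (Cdc45 -0.38, adjusted p = 0.248; Mcm10 -0.31, adjusted p = 0.544).

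Polymerase genes rose in 3 of 5 cases in pChePS_GC (median 0.51) and in 4 of 5 in pCP_GC (median 0.97). Pole, the catalytic subunit of polymerase epsilon, which copies the leading strand, had the largest rise of the list in pChePS_GC. Pole was 7.70, 8.12, 8.27 and 8.06 on the NGE arrays, 9.13, 10.27, 8.85 and 8.98 on those of pChePS_GC, and 9.86, 9.82 and 9.90 on those of pCP_GC. Every tumour array was above every NGE array, and the 3 pCP_GC arrays were nearly equal. Pole rose by 1.27 (SE 0.27, adjusted p = 0.00389) in pChePS_GC and by 1.82 (SE 0.29, adjusted p = 0.000718) in pCP_GC. Pold1, the catalytic subunit of polymerase delta of the lagging strand, was 8.24, 8.19, 8.34 and 8.16 on the NGE arrays, 8.61, 8.94, 8.85 and 8.93 on those of pChePS_GC, and 8.998, 8.79 and 9.41 on those of pCP_GC. It rose by 0.60 (SE 0.13, adjusted p = 0.00475) in pChePS_GC and by 0.83 (SE 0.14, adjusted p = 0.00102) in pCP_GC, with no overlap.

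The primase and polymerase alpha complex, which lays down the starting primer, was less uniform. Prim1, the primase itself, was 7.69, 8.33, 7.97 and 8.22 on the NGE arrays, 8.18, 8.83, 8.45 and 8.70 on those of pChePS_GC, and 9.32, 9.12 and 9.29 on those of pCP_GC. Replicate 1 of pChePS_GC lay within the NGE range, and all pCP_GC arrays were above all others. Prim1 rose by 0.49 (SE 0.17, adjusted p = 0.0365) in pChePS_GC and by 1.19 (SE 0.18, adjusted p = 0.000549) in pCP_GC. Pola1, the catalytic subunit, was 7.75, 8.31, 8.16 and 7.95 on the NGE arrays, 8.26, 9.42, 7.71 and 8.81 on those of pChePS_GC, and 9.10, 8.61 and 9.32 on those of pCP_GC. In pChePS_GC, replicate 3 was below all NGE arrays and replicates 2 and 4 were above all of them. The Pola1 difference was 0.51 (SE 0.31, adjusted p = 0.205) in pChePS_GC, not passed, and 0.97 (SE 0.34, adjusted p = 0.0337) in pCP_GC. Pola1 is X-linked, and the part of the sex-linked difference in its values was not tested. Pola2, its regulatory subunit, was 9.19, 9.21, 9.07 and 9.20 on the NGE arrays, 9.38, 10.23, 9.12 and 9.34 on those of pChePS_GC, and 9.77, 9.41 and 9.70 on those of pCP_GC. Its differences of 0.35 (SE 0.20, adjusted p = 0.181) in pChePS_GC and 0.46 (SE 0.22, adjusted p = 0.101) in pCP_GC did not pass, although its pCP_GC arrays did not overlap NGE.

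Genes of the sliding clamp, its loader and the finishing of the lagging strand rose in 7 of 8 cases in pChePS_GC (median 0.57) and in 8 of 8 in pCP_GC (median 0.81). Rfc4, a subunit of the loader that opens the clamp around DNA, had the largest rise of the list in pCP_GC. Rfc4 was 8.84, 9.04, 8.70 and 8.89 on the NGE arrays, 9.67, 10.44, 10.03 and 10.09 on those of pChePS_GC, and 10.89, 10.37 and 10.87 on those of pCP_GC. All 7 tumour arrays lay above NGE, and pChePS_GC replicate 1 was the lowest of them. Rfc4 rose by 1.19 (SE 0.17, adjusted p = 0.000326) in pChePS_GC and by 1.84 (SE 0.18, adjusted p = 3.66e-05) in pCP_GC. Its partner subunits rose as well. Rfc5 rose by 1.22 (SE 0.18, adjusted p = 0.000448) in pChePS_GC and by 1.31 (SE 0.19, adjusted p = 0.000471) in pCP_GC. Rfc3 rose by 0.97 (SE 0.14, adjusted p = 0.000443) and 1.19 (SE 0.15, adjusted p = 0.000219), and Rfc2 by 0.59 (SE 0.13, adjusted p = 0.00522) and 0.85 (SE 0.14, adjusted p = 0.000937), in the same order.

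Pcna, the clamp itself, was 11.78, 11.69, 11.70 and 11.61 on the NGE arrays, 12.15, 12.59, 12.04 and 12.13 on those of pChePS_GC, and 12.47, 12.46 and 12.50 on those of pCP_GC. The groups of tumours did not overlap NGE, and the pCP_GC arrays were nearly equal to one another. Pcna rose by 0.53 (SE 0.11, adjusted p = 0.00428) in pChePS_GC and by 0.78 (SE 0.12, adjusted p = 0.000673) in pCP_GC, and its 2 probe sets gave the same differences to 2 decimals. These probe sets were nearly equal on every array (11.784 and 11.782 in NGE replicate 1), so they are not taken as separate measurements. Fen1, the nuclease that trims lagging strand pieces, was 7.98, 8.18, 8.11 and 8.07 on the NGE arrays, 8.40, 8.92, 8.39 and 8.84 on those of pChePS_GC, and 8.59, 8.42 and 8.79 on those of pCP_GC. It rose by 0.56 (SE 0.14, adjusted p = 0.00918) in pChePS_GC and by 0.52 (SE 0.15, adjusted p = 0.0137) in pCP_GC. Lig1, the ligase that joins them, rose by 0.47 (SE 0.16, adjusted p = 0.0374) and 0.71 (SE 0.17, adjusted p = 0.00685). Rpa2, a subunit of the protein that coats single-stranded DNA, differed by 0.32 (SE 0.14, adjusted p = 0.0874) in pChePS_GC, not passed, and rose by 0.70 (SE 0.15, adjusted p = 0.00383) in pCP_GC.

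Genes that make DNA building blocks rose in 3 of 4 cases in pChePS_GC (median 0.73) and in 4 of 4 in pCP_GC (median 1.05). Rrm1 and Rrm2 are the large and small subunits of ribonucleotide reductase, which turns ribonucleotides into deoxyribonucleotides. Rrm2 was 8.89, 9.31, 9.03 and 9.33 on the NGE arrays, 9.28, 10.42, 9.98 and 10.33 on those of pChePS_GC, and 10.79, 10.80 and 10.78 on those of pCP_GC. Its pCP_GC arrays were nearly equal, and replicate 1 of pChePS_GC lay within the NGE range. Rrm2 rose by 0.86 (SE 0.22, adjusted p = 0.0101) in pChePS_GC and by 1.65 (SE 0.24, adjusted p = 0.000389) in pCP_GC. Rrm1 was 10.39, 10.81, 10.56 and 10.58 on the NGE arrays, 11.27, 11.79, 11.25 and 11.49 on those of pChePS_GC, and 11.66, 11.28 and 11.82 on those of pCP_GC, with no overlap, and rose by 0.87 (SE 0.15, adjusted p = 0.00147) in pChePS_GC and by 1.00 (SE 0.17, adjusted p = 0.000911) in pCP_GC.

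Tyms, the thymidylate synthase, was 9.16, 9.53, 9.36 and 9.33 on the NGE arrays, 9.93, 10.40, 9.48 and 9.996 on those of pChePS_GC, and 10.25, 10.42 and 10.65 on those of pCP_GC. It rose by 0.60 (SE 0.17, adjusted p = 0.0191) in pChePS_GC, where replicate 3 lay within the NGE range, and by 1.09 (SE 0.19, adjusted p = 0.00112) in pCP_GC. Tk1, the cytosolic thymidine kinase of the salvage route, had the smaller differences of 0.26 (SE 0.11, adjusted p = 0.0792) in pChePS_GC, not passed, and 0.49 (SE 0.12, adjusted p = 0.00633) in pCP_GC. The other of its 2 probe sets gave 0.31 and 0.69.

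Genes that rebuild chromatin and copy DNA methylation behind the fork rose in 3 of 4 cases in pChePS_GC (median 0.58) and in 4 of 4 in pCP_GC (median 0.98). Chaf1a and Chaf1b are subunits of chromatin assembly factor 1, which places histones on new DNA. Chaf1b was 8.34, 8.79, 8.54 and 8.40 on the NGE arrays, 9.53, 10.14, 9.54 and 9.59 on those of pChePS_GC, and 9.85, 9.71 and 10.12 on those of pCP_GC. All tumour arrays were above NGE, and apart from replicate 2 the pChePS_GC arrays were nearly equal. Chaf1b rose by 1.18 (SE 0.16, adjusted p = 0.000258) in pChePS_GC and by 1.38 (SE 0.17, adjusted p = 0.000182) in pCP_GC, and Chaf1a by 0.48 (SE 0.17, adjusted p = 0.0446) and 0.70 (SE 0.19, adjusted p = 0.00953).

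Uhrf1 finds newly copied DNA that is methylated on the old strand alone and brings in Dnmt1, the maintenance methyltransferase. Uhrf1 was 8.32, 8.78, 8.49 and 8.20 on the NGE arrays, 9.02, 9.85, 9.02 and 8.65 on those of pChePS_GC, and 9.60, 9.83 and 9.54 on those of pCP_GC. It rose by 0.69 (SE 0.23, adjusted p = 0.0319) in pChePS_GC, where replicate 4 lay within the NGE range, and by 1.21 (SE 0.24, adjusted p = 0.00246) in pCP_GC. Dnmt1 was 9.63, 9.81, 9.88 and 9.70 on the NGE arrays, 9.81, 10.57, 9.84 and 10.01 on those of pChePS_GC, and 10.57, 10.36 and 10.59 on those of pCP_GC. Apart from replicate 2, the pChePS_GC arrays were near the NGE level, and all pCP_GC arrays were above it. The Dnmt1 difference was 0.30 (SE 0.16, adjusted p = 0.134) in pChePS_GC, not passed, and 0.75 (SE 0.17, adjusted p = 0.00431) in pCP_GC.

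Both repair genes rose in both tumour groups, with medians of 1.01 in pChePS_GC and 1.24 in pCP_GC. Brca1, which acts in homologous recombination and at stalled forks, was 7.56, 7.81, 7.98 and 7.56 on the NGE arrays, 9.11, 9.25, 8.26 and 8.10 on those of pChePS_GC, and 9.08, 8.34 and 9.07 on those of pCP_GC. Replicates 1 and 2 of pChePS_GC and replicates 1 and 3 of pCP_GC formed the upper values, and the remaining tumour arrays were closer to NGE but still above it. Brca1 rose by 0.95 (SE 0.27, adjusted p = 0.0183) in pChePS_GC and by 1.10 (SE 0.29, adjusted p = 0.01) in pCP_GC. Fancd2, a core protein of the Fanconi pathway of crosslink repair, was 6.75, 7.07, 7.05 and 6.88 on the NGE arrays, 7.84, 8.52, 7.64 and 7.999 on those of pChePS_GC, and 8.44, 8.21 and 8.31 on those of pCP_GC. It rose by 1.07 (SE 0.17, adjusted p = 0.000681) in pChePS_GC and by 1.39 (SE 0.18, adjusted p = 0.000233) in pCP_GC, with no overlap.

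**Figure D4:**
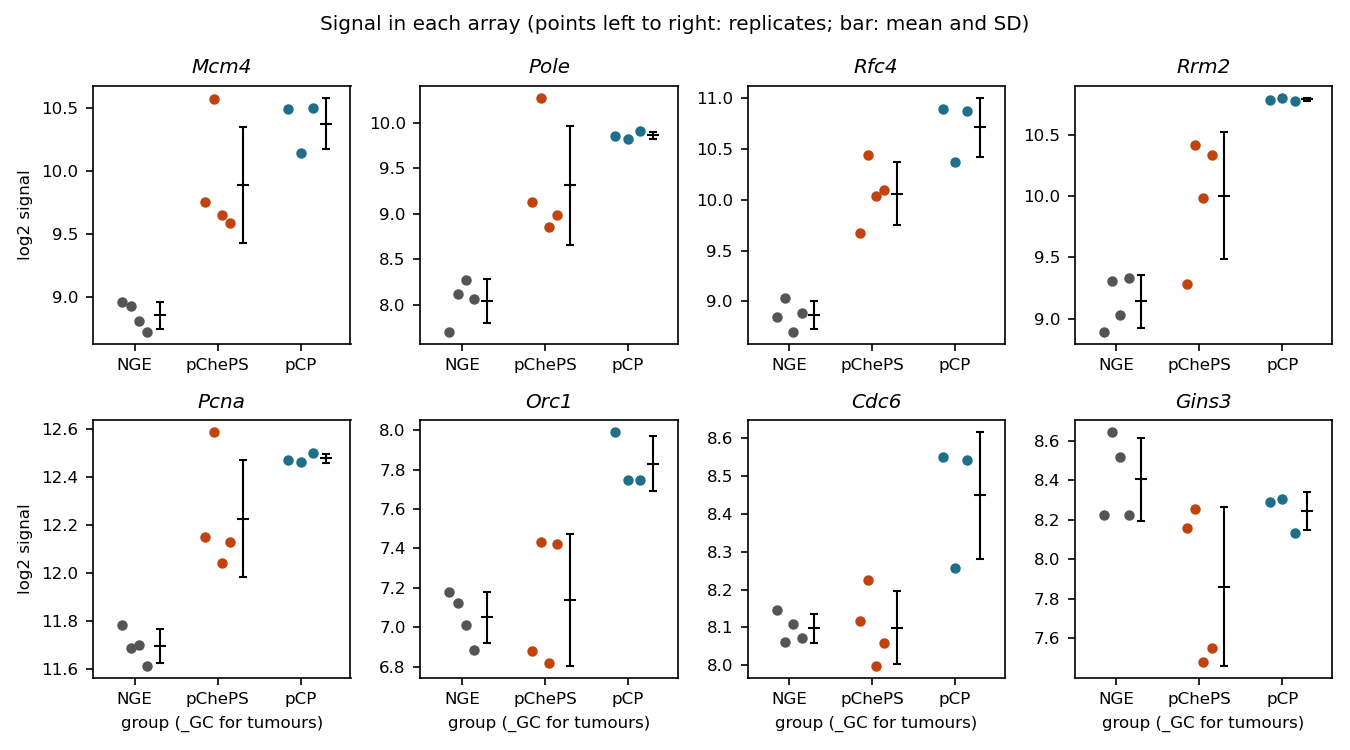
Log2 signal of 8 genes in each array, with replicates 1 to n from left to right in NGE (n = 4), pChePS_GC (n = 4) and pCP_GC (n = 3) and the mean and SD beside the points; each panel has its own signal axis, which does not start at 0. Tumour and NGE arrays do not overlap for Mcm4, Pole, Rfc4 and Pcna, while Cdc6 and Orc1 are above NGE on all arrays in pCP_GC alone and Gins3 is lowest in pChePS_GC replicates 3 and 4.

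The tumour groups were then compared with each other, which asks how the genotype with floxed Smad4 and 1 floxed Cdh1 allele differs from that with 2 floxed Cdh1 alleles. None of the 39 genes passed this test in limma, where 0.115% of all genes were higher and 0.251% lower in pChePS_GC. At an unadjusted p under 0.05, 10 of 39 were lower and 0 higher in pChePS_GC, against 6.81% and 9.72% of all genes. The mean was lower in pChePS_GC for 37 of 39 genes, all but Cdt1 and Fen1, where 42.2% of all genes were lower. The median difference was -0.26, with a range of -0.79 to 0.08, and 0.04 over all genes. A missed threshold does not show that the groups are alike, and some intervals reached beyond a 2-fold difference.

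Orc1, Cdc6, Prim1 and Rrm2 were lower on every pChePS_GC array than on any pCP_GC array (4 of 39, against 4.40% of all genes). Orc1 differed by -0.69 (95% interval -1.06 to -0.33, adjusted p = 0.109), and Prim1 by -0.70 (-1.10 to -0.30, adjusted p = 0.125). Rrm2 differed by -0.79 (-1.30 to -0.27, adjusted p = 0.17), and Cdc6 by -0.35 (-0.56 to -0.14, adjusted p = 0.146). None of these 4 differences passed the test. For Rfc4 the difference was -0.65 (-1.05 to -0.25, adjusted p = 0.15), for Pole -0.55 (-1.19 to 0.08, adjusted p = 0.357) and for Mcm4 -0.49 (-0.95 to -0.02, adjusted p = 0.287). Mcm2 differed by -0.01 (-0.50 to 0.48, adjusted p = 0.985).

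This comparison depended on pChePS_GC replicate 2. Without it all 39 genes had a lower mean in pChePS_GC, with 3 arrays left in each group. The median difference was -0.41 against 0.04 over all genes, and 26 of 39 were lower on every pChePS_GC array than on any pCP_GC array (6.76% of all genes). Mcm4 and Pole then passed, Mcm4 with a difference of -0.71 (adjusted p = 0.0423) and Pole with -0.87 (adjusted p = 0.0369), where 0.130% of all genes were higher and 0.301% lower. The array was left out because of its high values for these same genes. Lower means and less overlap without it follow in part from that choice, so these counts and passes are no separate evidence of a difference. Leaving out any other array gave no pass.

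Other genes of DNA replication and repair were read from lists of named genes. Of 136 measured, 53 rose and 7 fell in pChePS_GC (median 0.31), and 73 rose and 4 fell in pCP_GC (median 0.49). Of all genes, 18.7% rose and 23.4% fell in pChePS_GC, and 20.0% rose and 31.8% fell in pCP_GC. Among 34 further replisome genes, 17 rose and 1 fell in pChePS_GC and 23 rose and 1 fell in pCP_GC. Dbf4, the activator of the Cdc7 kinase that fires origins, rose by 1.45 (SE 0.13, adjusted p = 1.39e-05) in pChePS_GC and by 1.80 (SE 0.14, adjusted p = 7.73e-06) in pCP_GC, and Ticrr, which helps load Cdc45, by 1.18 (SE 0.22, adjusted p = 0.00223) and 1.48 (SE 0.24, adjusted p = 0.000885). Of 9 histone chaperone and chromatin genes, 5 rose in pChePS_GC and 9 in pCP_GC, led by Cdca7 (2.03 and 2.40) and its remodeller partner Hells (1.44 and 1.94). Of 13 genes of nucleotide supply, 6 rose and 1 fell in each tumour group. The largest rise there was that of Ctps, a CTP synthase, by 1.88 and 1.90.

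The routes of repair were counted separately. Of 13 homologous recombination genes, 5 rose in pChePS_GC and 9 in pCP_GC, among them Brca2 (0.85 and 1.11) and Bard1, the partner of Brca1 (0.83 and 1.45). Of 12 further Fanconi genes, 3 rose and 1 fell in pChePS_GC and 3 rose in pCP_GC, with medians of 0.17 and 0.30. Mismatch repair, which corrects copying errors, had 1 of 4 genes up in pChePS_GC and 3 of 4 in pCP_GC. Base excision repair, which removes damaged bases, had 2 of 13 up and 1 down in pChePS_GC and 4 up and 1 down in pCP_GC, with medians of 0.13 and 0.11. Nucleotide excision repair, the route for bulky lesions, had 5 of 12 up in pChePS_GC and 3 in pCP_GC, and end joining of broken DNA 2 of 8 up in each. Beside the 18.7% and 20.0% of all genes that rose, the counts of risen genes for base excision repair, end joining and the further Fanconi genes are near the background. The same holds for mismatch repair in pChePS_GC and for nucleotide excision repair in pCP_GC. These counts are no result about these routes. No test compared these lists with each other.

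Of 13 genes of the E2F and Rb families, 4 rose and 1 fell in pChePS_GC and 8 rose and 1 fell in pCP_GC, where 18.7% and 20.0% of all genes rose and 23.4% and 31.8% fell. The count of risen genes in pChePS_GC is near that share. E2f1, an activator, rose by 0.77 (SE 0.18, adjusted p = 0.00711) in pChePS_GC and by 1.25 (SE 0.20, adjusted p = 0.000666) in pCP_GC, and E2f3, another activator, by 0.81 (SE 0.12, adjusted p = 0.000388) and 1.46 (SE 0.13, adjusted p = 1.67e-05). Rbl1, the pocket protein p107, rose by 0.85 and 1.37. All 19 mitosis genes rose in both tumour groups, with medians of 1.23 and 1.55, both above those of the replication and repair genes. Bub1, a kinase of the spindle checkpoint, rose by 2.25 and 2.69, and Plk1, a kinase of mitotic entry, by 1.73 and 1.89.

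**Figure D5:**
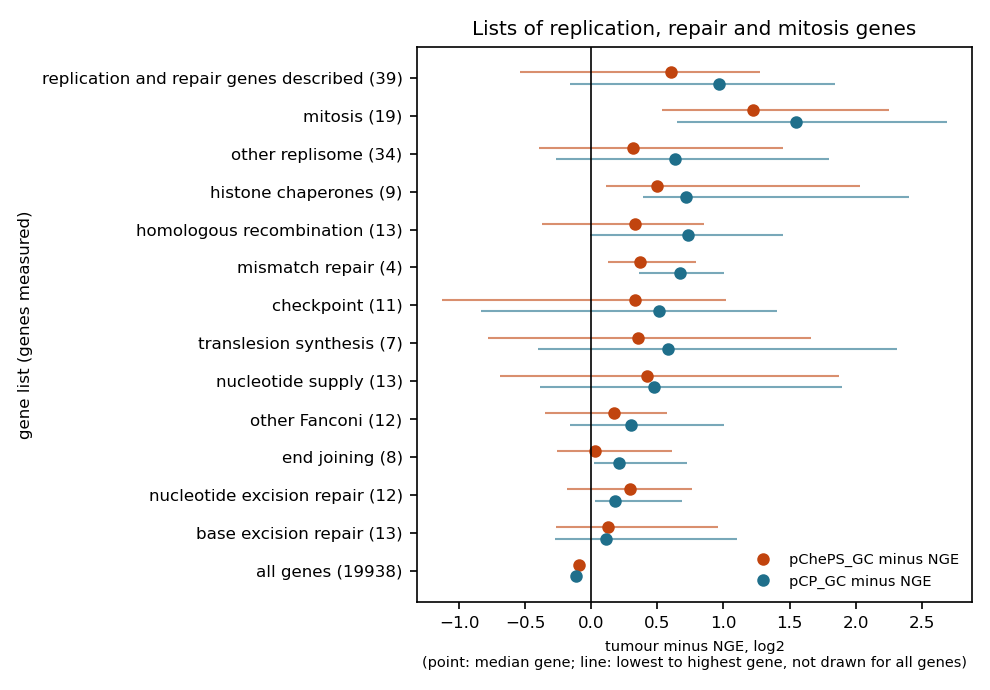
Median difference in log2 signal from NGE for lists of replication, repair and mitosis genes (point) with the lowest and highest gene of each list (line), in pChePS_GC and pCP_GC, and the median over all 19938 genes. Mitosis genes lie farthest right with medians of 1.23 and 1.55, the 39 replication and repair genes follow at 0.60 and 0.97, and base excision repair is nearest to the all-gene medians in pCP_GC at 0.11.

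Marker genes of other cell types differed between NGE and the tumours as well. The counts below stand beside 18.7% of all genes that rose and 23.4% that fell in pChePS_GC, and 20.0% and 31.8% in pCP_GC. All 10 macrophage markers rose in both tumour groups, and the mean level of that list ran from 7.37 to 7.56 over NGE arrays, from 10.26 to 10.91 in pChePS_GC and from 9.89 to 11.04 in pCP_GC. Of 10 fibroblast markers, 10 rose in pChePS_GC and 9 in pCP_GC, with mean levels of 7.65 to 7.85 in NGE, 10.58 to 11.44 in pChePS_GC and 10.43 to 11.53 in pCP_GC. Endothelial markers rose in 7 of 8 cases in each group, and smooth muscle markers in 6 of 6. Of 8 epithelial markers, 4 rose and 1 fell in pChePS_GC and 3 rose and 1 fell in pCP_GC, with mean levels of the list of 11.64 to 11.84, 12.02 to 12.35 and 11.88 to 12.46 in NGE, pChePS_GC and pCP_GC. The gene that fell was the floxed Cdh1, and the largest rises were those of the tight junction genes Cldn7, by 3.57 and 3.40, and Cldn4, by 3.25 and 2.37.

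Of 5 markers of parietal cells, which secrete acid, 4 fell in each tumour group, and of 5 markers of chief cells, which secrete pepsinogen, 5 fell in pChePS_GC and 4 in pCP_GC. Of 4 surface mucous cell markers, 3 fell in pChePS_GC and 0 passed in pCP_GC (limma), where 1 was lower at an unadjusted p under 0.05. Even so, all 4 were lower on every pCP_GC array than on any NGE array, with a median difference of -0.61. Of all 19938 genes, 7092 were lower on every pCP_GC array in this way. Of 3 mucous neck cell markers, 1 rose and 1 fell in pChePS_GC and 1 rose in pCP_GC. Of 10 T and NK cell markers 0 rose in either group, while Cd8a and Gzma fell in pChePS_GC and Cd8a in pCP_GC, and Cd3d, Nkg7, Gzma and Gzmb were under the receptor percentile in both. In NGE, 7 of the 10 were under it, Gzma among them. Beside the 23.4% and 31.8% of all genes that fell, these falls are no result about the list. Of 8 neutrophil markers, 5 rose and 1 fell in pChePS_GC and 5 rose and 2 fell in pCP_GC. The part of these other cell types in the values of the replication and repair genes was not tested.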

How the data were processed

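Per the labels, AllPrep total RNA of 11 mouse stomach samples carried a biotin label on Affymetrix arrays. The values used are the log2 signals of 35556 probe sets as deposited by the authors, with the unit inferred from their range (2.88 to 14.6). Affymetrix Expression Console is the tool in the submitters' processing notes. Its version and algorithm were not given in the sources used here.

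The platform annotation named 1 symbol for 21789 probe sets, several for 1621 and none for 12146. By gene number 21698 matched RefSeq (GRCm38.p6). Each gene took its brightest probe set over 11 arrays, which gave 19938 genes, and no dim gene was left out. Groups are those of the labels. limma 3.58.1 (lmFit, eBayes; R 4.3.3) fitted the group means over all arrays. The precision is limited by the number of arrays, 3 or 4 in a group. Correlations between arrays of a group ran from 0.962 to 0.994.

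On simulated arrays with 200 of 19938 genes changed, the fit recovered 80%, 70% and 70% of 2-fold changes and 46%, 34% and 35% of 1.5-fold changes, and 1.56%, 7.96% and 4.55% of its calls were false (in order: pChePS_GC against NGE, pCP_GC against NGE, pChePS_GC against pCP_GC). The false share for pCP_GC against NGE was thus above the adjusted p threshold of 0.05. On the real arrays 42.1%, 51.8% and 0.366% of all genes passed, in the same order. Rates from a simulation with so few changed genes need not hold for the comparisons with NGE.

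The genes and lists were chosen with earlier results of these data known. All 39 genes were named, with the floxed genes Cdh1 and Smad4, 2 sex-linked genes and, from each other list, its counts and up to 3 genes with the largest change that passed. A gene named for 1 comparison with NGE is given in the other too. The expression of Trp53 was not analysed here. Alternatives covered the variance prior, the groups fitted, centring, quantile normalization, dim genes, probe set means, weights for arrays, a block for the replicate number, stricter thresholds and each array left out in turn.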

Additional observations from a re-analysis of the deposited data

Results flagged for a closer look

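In 3 cases a value lay far from the other arrays of its group, out of 78 groups of 4 arrays examined, where chance alone gives such a gap in about 5% of groups. Chaf1b, a chromatin assembly subunit, was 10.14 in pChePS_GC replicate 2, and the next array of that group was at 9.59, a gap of 0.904 of the whole range. Lig1, the replicative ligase, was 10.158 in the same array with the next at 9.52 (0.876 of the range). Pola2, a polymerase alpha subunit, was 9.073 in NGE replicate 3, below the next array at 9.19 (0.847 of the range).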

How the results depend on the processing

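The number of arrays limits these results. Of the 39 genes, 16 kept their direction and side of the threshold under every alternative in pChePS_GC against NGE, 25 in pCP_GC against NGE and 29 between the tumour groups. In pChePS_GC against NGE, 21 to 30 of the 39 genes changed when 1 array was left out and 15 at an adjusted p under 0.01. With a 2-fold minimum at an adjusted p under 0.05, 8 changed. The lowest count with 1 array left out, 21, was without NGE replicate 1. Over all 19938 genes, 6107 to 8773 changed with 1 array left out, and 6257 without NGE replicate 1 (8386 with all arrays). In pCP_GC against NGE the counts were 32 to 38 with 1 array left out, 28 at 0.01, 26 after quantile normalization and 19 with the 2-fold minimum. Over all genes, 8344 to 10627 changed there with 1 array left out and 8655 after quantile normalization. Between the tumour groups 0 to 2 passed with 1 array left out, the 2 without pChePS_GC replicate 2.

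Over all genes, 4881 changed in pChePS_GC without the dimmest 50% of genes (8386 with all of them), 4411 at 0.01 and 2057 with the 2-fold minimum. In pCP_GC these counts were 4611 (10337 with all genes), 6682 and 2185. Between the tumour groups 73 changed, and 31 without the dimmest 50%, 12 at 0.01, 42 with the 2-fold minimum, 188 with array weights, 0 with those groups fitted alone and 26 to 154 with 1 array left out (26 without NGE replicate 3, 154 without pCP_GC replicate 2). The dim filter tests fewer genes; the causes of the other changes were not tested.

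Replicate numbers are shared by the groups, but deviations from the group mean of same-numbered arrays correlated at -0.155 to 0.156 in 10 pairs, 2 of them over 0.1, so the numbers were not taken as a pairing. With the replicate number as a block, 27, 34 and 0 of the 39 genes changed in the 3 comparisons. Over all 19938 genes, 8553 and 9610 changed against NGE in pChePS_GC and pCP_GC, and 0 between the tumour groups.

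Signs turned only for differences near 0 that did not pass. In pChePS_GC against NGE, centring gave -0.086 for Orc1, -0.173 for Cdc6 and -0.04 for Cdc45, and quantile normalization -0.156 for Cdc6 and -0.097 for Cdc45. With 1 array left out, Orc1 ran from -0.009 to 0.196, Cdc6 from -0.04 to 0.035 and Cdc45 from -0.002 to 0.203. Between the tumour groups Mcm2 was 0.028 with centring, 0.02 with quantile normalization, 0.132 with array weights and 0.009 with the replicate block, and Rfc5 was 0.07 with array weights. With 1 array left out, the ranges were -0.25 to 0.12 for Mcm2, -0.197 to 0.217 for Cdt1, -0.412 to 0.063 for Mcm3, -0.299 to 0.003 for Gins4, -0.35 to 0.023 for Pola2, -0.284 to 0.028 for Rfc5, -0.057 to 0.129 for Fen1 and -0.393 to 0.047 for Brca1. The cause was not tested.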

Other observations

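Among the other replication and repair genes, 1 of 136 passed between the tumour groups (0.735%, against 0.366% of all genes). A single gene is near that share and is no result about the list. Pold4, the small accessory subunit of polymerase delta, was 9.42, 9.21, 9.03 and 9.12 on the NGE arrays, 10.24, 10.04, 10.09 and 10.21 on those of pChePS_GC, and 9.45, 9.50 and 9.36 on those of pCP_GC. All pChePS_GC arrays were above all pCP_GC arrays, with a difference of 0.71 (95% interval 0.48 to 0.93, limma, adjusted p = 0.0212). The adjusted p was 0.155 with those groups fitted alone, 0.072 without pCP_GC replicate 1, 0.0861 without pCP_GC replicate 3 and 0.0964 with the replicate block. Its direction was opposite to that of 37 of the 39 genes above, whose means were lower in pChePS_GC.

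Of 11 checkpoint genes, 4 rose and 2 fell in pChePS_GC and 6 rose and 1 fell in pCP_GC, where 18.7% and 20.0% of all genes rose and 23.4% and 31.8% fell in these groups. Chek1 and Chek2, the effector kinases of the DNA damage checkpoint, rose by 1.02 and 0.84 in pChePS_GC and by 1.40 and 1.24 in pCP_GC. Wee1, the kinase that holds back Cdk1 before mitosis, was 10.93, 11.05, 10.92 and 10.73 on the NGE arrays, 9.14, 9.87, 10.12 and 9.98 on those of pChePS_GC, and 10.24, 9.73 and 10.24 on those of pCP_GC. In pChePS_GC it fell by 1.13, with an adjusted p = 0.00161, and in pCP_GC by 0.84, with an adjusted p = 0.00901. Of 7 genes of translesion synthesis, by which polymerases copy past damage, 3 rose and 1 fell in pChePS_GC and 5 rose in pCP_GC. Rad18, the ubiquitin ligase that marks the clamp for this route, was 8.64, 8.40, 8.27 and 8.30 on the NGE arrays, 9.38, 10.16, 10.35 and 10.36 on those of pChePS_GC, and 10.82, 10.61 and 10.71 on those of pCP_GC. It rose by 1.66 (SE 0.20, adjusted p = 0.000107) in pChePS_GC and by 2.31 (SE 0.21, adjusted p = 2.44e-05) in pCP_GC, with no overlap between tumour and NGE arrays. Polk, a polymerase of the route, fell by 0.78 in pChePS_GC (adjusted p = 0.00431) and differed by -0.40 in pCP_GC (adjusted p = 0.0801, not passed).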
